A study of Rattus norvegicus with 6 samples.

Results

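The genes described are Lyz2, Cd68, Trem2, Tyrobp, Gpnmb, Lgals3, Ctsd, Ctsk and Apoe, which encode proteins of the lysosome and of lipid-loaded macrophages. They were chosen by name from a list of 10 symbols, and 9 of the 10 had a row among the 17833 genes of the expression table. Marco, a scavenger receptor and the remaining symbol of the list, was not analysed here. The study sequenced RNA from the whole pulmonary veins (PVs) of 6 wild-type Sprague-Dawley pups, 3 with both pulmonary veins banded (BPVB) and 3 after a sham operation. Surgery was performed at postnatal day 1 and the veins of the right upper lung lobe were collected at postnatal day 21. The sham operation opened the chest and exposed the veins without tying a constriction, so that both groups shared anesthesia and thoracotomy. Sex was not given by the labels. The question of the comparison was how the transcriptome of a vein narrowed since birth differs from that of an unbanded vein.

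Macrophages take up dead cells, lipoproteins and microbes and break them down in lysosomes, acidic vesicles filled with hydrolytic enzymes. In tissues with much lipid or debris, macrophages raise a program that includes the lipid-sensing receptor TREM2, its signalling adaptor TYROBP (also called DAP12), the glycoprotein GPNMB, the lectin galectin-3 (Lgals3) and apolipoprotein E. Several of these genes are not limited to macrophages: fibroblasts and smooth muscle cells make cathepsins and apolipoprotein E, and the type 2 cells of the lung alveolus make lysozyme.

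At an adjusted p under 0.05, BPVB veins held more of 8 genes, less of 0, and Trem2 was not called. Of all 15150 genes tested, 17.2% were called higher, 14.3% lower and 31.5% in either direction. Lyz2, Cd68, Tyrobp and Gpnmb also had an absolute log2 fold change above 1, the second threshold for a differentially expressed gene (DEG), which 2.24% of all tested genes met in this direction, 1.03% in the other and 3.27% in either. The 8 called genes were higher in each BPVB library than in every sham library, as were 25.2% of all tested genes, and 45.6% of all tested genes had no overlap in one direction or the other. The median log2 fold change of the 9 genes was 0.53, against 0.02 over all tested genes. Fold changes were fitted with limma on log2(FPKM + 0.5), where FPKM is the number of fragments per length of gene and per library size, and p-values were adjusted by Benjamini-Hochberg over all tested genes. Adding 0.5 understates the change of genes with few FPKM.

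The libraries held between 23439506 and 29725808 fragments, with the deeper libraries in the BPVB group. In whole-tissue RNA, more cells of a type and more RNA per cell cannot be told apart. Marker lists of lung tissue moved with the groups. The 10 alveolar type 2 cell markers summed to 559 to 604 FPKM in BPVB libraries and to 65.6 to 67.6 FPKM in sham libraries, 9 of them were called higher, and none was at 0. The 6 alveolar type 1 cell markers summed to 194 to 200 FPKM against 127 to 129 FPKM, with 5 called higher, 1 lower and a median log2 fold change of 2.05. Within this list Ager (2.54) and Cldn18 (3.01) rose, and Hopx, among the most abundant of the 6, fell by 0.26 on the log2 scale. The labelled tissue was checked on defining markers of the vein wall and its muscle sleeve: cardiomyocyte markers summed to 12145 to 12519 FPKM in the BPVB group and 16508 to 16807 FPKM in the sham group (4 of 6 called lower, beside 14.3% of all tested genes, with Nppa and Ryr2 called higher by 0.23 and 0.38 on the log2 scale), smooth muscle markers to 3805 to 3852 against 4139 to 4219 FPKM (4 of 5 called lower, 0 higher), and endothelial markers to 971 to 985 against 1062 to 1070 FPKM (3 of 6 called lower, 0 higher). The part of these shifts in the results on macrophage genes was not tested.

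**Figure D1:**
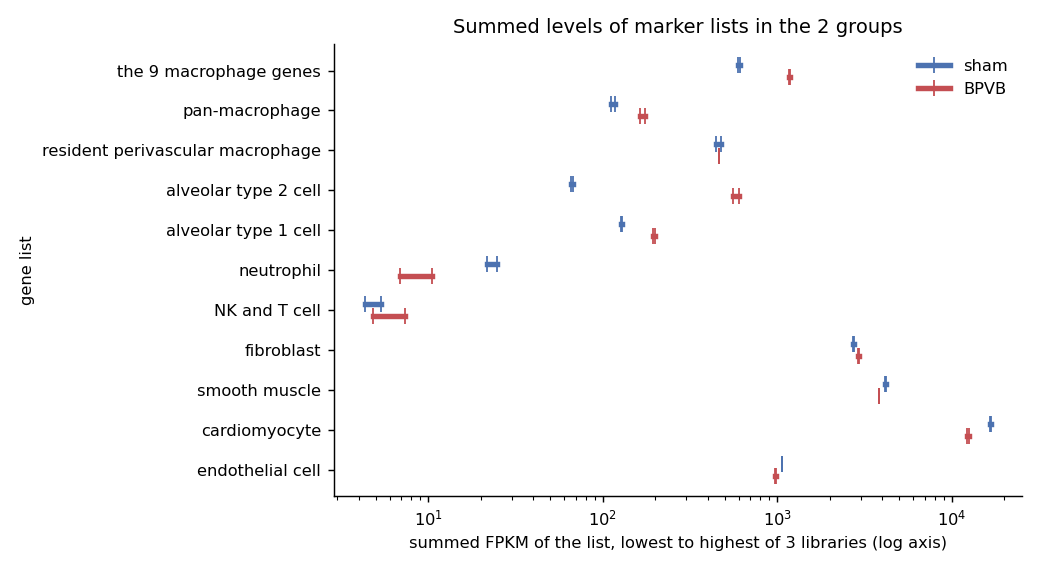
Summed FPKM of the macrophage genes and of 10 cell type marker lists on a log axis, drawn from the lowest to the highest of the 3 libraries of a group. The alveolar type 2 cell list shows the widest gap, at 559 to 604 FPKM in BPVB against 65.6 to 67.6 FPKM in sham libraries, and the neutrophil list runs the other way at 6.90 to 10.4 against 21.8 to 24.6 FPKM.

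Lyz2 (lysozyme 2, NCBI Gene 25211) encodes the enzyme that cleaves bacterial cell walls and is among the most abundant transcripts of macrophages. Its level was 598, 604 and 574 FPKM in the BPVB libraries and 164, 159 and 167 FPKM in the sham libraries. The groups lay far apart, and the spread within each was small, with a coefficient of variation of 2.62% in BPVB and 2.36% in sham. Lyz2 rose by a log2 fold change of 1.85 (SE 0.029, 95% interval 1.79 to 1.92, adjusted p = 1.4e-09, limma). Lyz2 took 49.1 to 50.9% of the summed FPKM of the 9 genes in BPVB and 26.8 to 27.6% in sham. Without Lyz2, the other 8 genes summed to 576, 584 and 596 FPKM in BPVB and 431, 434 and 446 FPKM in sham, so that these groups did not overlap either. By RefSeq, the neighbouring gene is Lyc2, a second lysozyme gene, with 2.81 ± 0.187 FPKM in BPVB and 0.126 ± 0.077 FPKM in sham (SD, n = 3). Reads shared by both lysozyme genes could have been given to either gene or left out. How the counting treated such reads is not given in the sources used here.

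Trem2 (NCBI Gene 301227) encodes a surface receptor for phospholipids and lipoproteins. Trem2 was measured at 3.04, 1.85 and 2.41 FPKM in BPVB and at 1.99, 1.36 and 2.57 FPKM in sham. The groups overlapped, and 1 of 3 BPVB libraries lay above all sham libraries. The log2 fold change was 0.25 (SE 0.21, 95% interval -0.22 to 0.73, adjusted p = 0.40, limma). Trem2 was the gene with the lowest level of the 9 and rested on 37 to 94 fragments a library, with a coefficient of variation of 24.4% in BPVB and 30.6% in sham.

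Tyrobp (NCBI Gene 361537) encodes the adaptor through which TREM2 and several other myeloid receptors signal. Its values were 25.2, 31.4 and 29.3 FPKM in BPVB against 14.4, 10.6 and 15.96 FPKM in sham. The lowest BPVB library stood above the highest sham library. Tyrobp rose by a log2 fold change of 1.05 (SE 0.14, 95% interval 0.74 to 1.36, adjusted p = 4.6e-04, limma). The rise stayed called without any single library, but its size crossed the DEG threshold: it was 0.98 without BPVB replicate 2 and 0.89 without sham replicate 2. The level of the receptor relative to its adaptor was taken as Trem2 minus Tyrobp on log2(FPKM + 0.5). It was -3.33 ± 0.45 in BPVB and -2.53 ± 0.092 in sham (SD, n = 3). The added 0.5 raises the low values of Trem2 more than those of Tyrobp. All 3 BPVB values of this difference lay below all sham values, and the shift of -0.80 had an exact permutation p of 0.1, the smallest that 3 against 3 libraries allow (two-sided, 0.2 after adjustment over the 2 pairs compared).

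**Figure D2:**
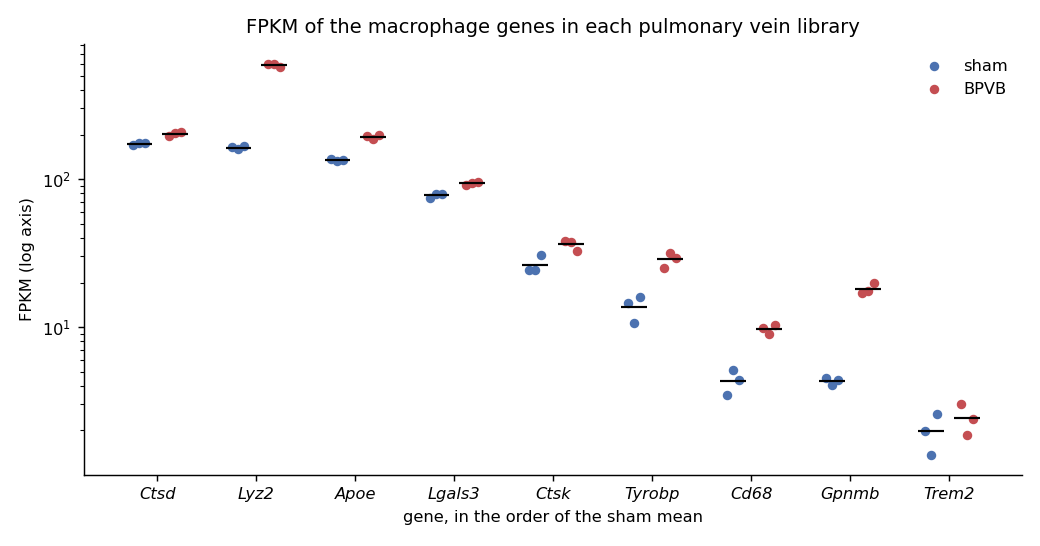
FPKM of the 9 genes in each of the 6 libraries on a log axis, as points for single libraries and short lines for group means, with the genes ordered by their sham mean. The groups are separate for 8 genes and interleaved for Trem2, whose libraries lie between 1.36 and 3.04 FPKM.

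Cd68 (macrosialin, NCBI Gene 287435) encodes a heavily glycosylated protein of the lysosomal membrane that is used to stain macrophages. Cd68 reached 9.87, 8.92 and 10.3 FPKM in the BPVB libraries and 3.47, 5.12 and 4.41 FPKM in the sham libraries. The lowest BPVB value exceeded the highest sham value, and the relative spread was wider in sham (coefficient of variation 19.1%) than in BPVB (7.38%). Cd68 rose by a log2 fold change of 1.09 (SE 0.13, 95% interval 0.80 to 1.38, adjusted p = 2.3e-04, limma). Without sham replicate 1, the sham library with the lowest Cd68, the log2 fold change was 0.96 and no longer above the DEG threshold.

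Gpnmb (glycoprotein nmb, NCBI Gene 113955) encodes a transmembrane glycoprotein of lysosomes and melanosomes that is abundant in lipid-laden macrophages. Its level was 16.9, 17.5 and 19.8 FPKM in BPVB and 4.56, 4.05 and 4.38 FPKM in sham. Each BPVB library held several times the level of every sham library. Gpnmb rose by a log2 fold change of 1.94 (SE 0.081, 95% interval 1.76 to 2.13, adjusted p = 5.6e-07, limma), the largest of the 9 genes. In sham veins Gpnmb and Cd68 overlapped in FPKM, whereas in BPVB veins Gpnmb (18.1 ± 1.52, SD, n = 3) lay above Cd68 (9.70 ± 0.715). Gpnmb is also made by pigment cells. Their matrix gene Pmel was at 0.170 ± 0.0194 FPKM in BPVB and 0.236 ± 0.0715 FPKM in sham (SD, n = 3, log2 fold change -0.13, adjusted p = 0.54, limma). Sox10, a factor of pigment and glial cells, fell by 0.70 on the log2 scale (adjusted p = 0.014, and 0.055 without sham replicate 1, limma). Tyr and Mlana were not analysed here.

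Ctsd (cathepsin D, NCBI Gene 171293) encodes the main aspartic protease of the lysosome. Ctsd was measured at 196, 204 and 208 FPKM in BPVB and 171, 176 and 174 FPKM in sham. The groups were close but did not overlap. Ctsd rose by a log2 fold change of 0.22 (SE 0.031, 95% interval 0.15 to 0.29, adjusted p = 6.7e-04, limma), which is 1.17 times the sham mean. In RefSeq, Ctsd overlaps Tnni2, a fast muscle troponin with 0.773, 0.0565 and 0.297 FPKM in BPVB and 0, 0 and 0.124 FPKM in sham. The groups overlapped for Tnni2, which was not called (adjusted p = 0.13, and 0.026 without BPVB replicate 2, limma).

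Ctsk (cathepsin K, NCBI Gene 29175) encodes a cysteine protease that degrades collagen and elastin, best known from osteoclasts and also made by fibroblasts. Its values were 38.1, 37.7 and 32.6 FPKM in BPVB and 24.3, 24.4 and 30.8 FPKM in sham. BPVB replicate 3 and sham replicate 3 lay nearest to each other, still without overlap. Ctsk rose by a log2 fold change of 0.45 (SE 0.097, 95% interval 0.23 to 0.67, adjusted p = 0.0077, limma). The difference Ctsk minus Ctsd on log2(FPKM + 0.5) was -2.48 ± 0.16 in BPVB and -2.70 ± 0.19 in sham (SD, n = 3). The groups overlapped for this difference (shift 0.23, exact permutation test, p = 0.2, two-sided, 0.2 after adjustment over the 2 pairs). Of the osteoclast markers, only Acp5 and Tnfrsf11a were expressed enough to be tested. Tnfrsf11a had a log2 fold change of 0.44 (adjusted p = 0.071, and 0.026 without BPVB replicate 3 and 0.034 with the replicate block, limma). Acp5 was called higher (0.47, adjusted p above 0.05 without BPVB replicate 1, BPVB replicate 2, sham replicate 1 or sham replicate 3 and with limma-voom on fragments, at most 0.083), and Calcr was at 0 in all libraries but 1 of the BPVB group. The 6 fibroblast markers summed to 2913 to 2932 FPKM in BPVB and 2728 to 2751 FPKM in sham, with 3 called higher and 2 lower, beside 17.2% and 14.3% of all tested genes.

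Lgals3 (galectin-3, NCBI Gene 83781) encodes a sugar-binding lectin that is secreted and that also coats damaged lysosomes. Lgals3 stood at 91.7, 94.6 and 95.01 FPKM in BPVB and 74.7, 79.4 and 79.3 FPKM in sham. All BPVB libraries lay above all sham libraries in a narrow range. Lgals3 rose by a log2 fold change of 0.27 (SE 0.036, 95% interval 0.19 to 0.35, adjusted p = 5.3e-04, limma).

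Apoe (apolipoprotein E, NCBI Gene 25728) encodes the lipid carrier that takes cholesterol out of macrophages and is a ligand of TREM2. Its level was 196, 188 and 198 FPKM in BPVB and 136, 133 and 134 FPKM in sham. The sham libraries differed by little from one another, with a coefficient of variation of 1.33%. Apoe rose by a log2 fold change of 0.53 (SE 0.030, 95% interval 0.46 to 0.59, adjusted p = 2.9e-06, limma).

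**Figure D3:**
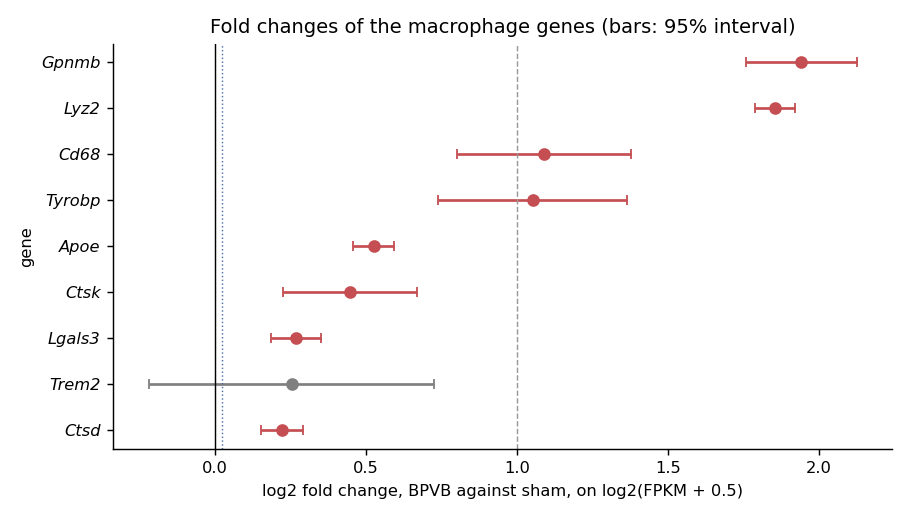
Log2 fold change of the 9 genes, BPVB against sham, on the log2(FPKM + 0.5) scale, with 95% intervals as bars; the dashed line marks a log2 fold change of 1 and the dotted line the median of all tested genes, 0.02. Gpnmb (1.94) and Lyz2 (1.85) lie well past the dashed line, Cd68 (1.09) and Tyrobp (1.05) near it, and the interval of Trem2 crosses 0.

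On the FPKM scale, which is per length, the order of mean levels in sham veins was Ctsd, Lyz2, Apoe, Lgals3, Ctsk, Tyrobp, Cd68, Gpnmb and Trem2. Neighbours in this order did not overlap except for Cd68 and Gpnmb. In BPVB veins Lyz2 stood first, followed by Ctsd, Apoe, Lgals3, Ctsk, Tyrobp, Gpnmb, Cd68 and Trem2, and the neighbours Ctsd and Apoe overlapped.

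Each gene was also set against general macrophage genes of the same library, to see whether it moved more or less than they did. The reference was the mean of log2(FPKM + 0.5) over 12 pan-macrophage genes, among them Csf1r, Adgre1, C1qa and Aif1, and it was 3.37 ± 0.078 in BPVB and 2.79 ± 0.038 in sham (SD, n = 3). Of these 12 genes 11 were called higher and 0 lower, beside 17.2% and 14.3% of all tested genes, and the exception, Mertk, had a log2 fold change of 0.01 (adjusted p = 0.98, limma). Relative to this reference, 4 of the 9 genes lay higher in every BPVB library than in any sham library. Their shifts were 1.36 for Gpnmb, 1.27 for Lyz2, 0.51 for Cd68 and 0.47 for Tyrobp on the log2 scale. The share of all tested genes without overlap on this relative scale was not computed. Lgals3 (-0.32) and Ctsd (-0.36) lay lower in every BPVB library than in any sham library, although both rose in FPKM. The reference itself rose by 0.58, against a median log2 fold change of 0.02 over all tested genes. A gene with unchanged FPKM therefore also lies lower in BPVB on this scale. The groups overlapped for Trem2 (-0.33), Ctsk (-0.14) and Apoe (-0.06). For each of the 6 genes without overlap the exact permutation p was 0.1 (two-sided, 0.15 after adjustment over the 9 genes), the smallest that this design allows. The same p was 0.3 for Trem2 and Apoe and 0.4 for Ctsk (exact permutation tests).

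**Figure D4:**
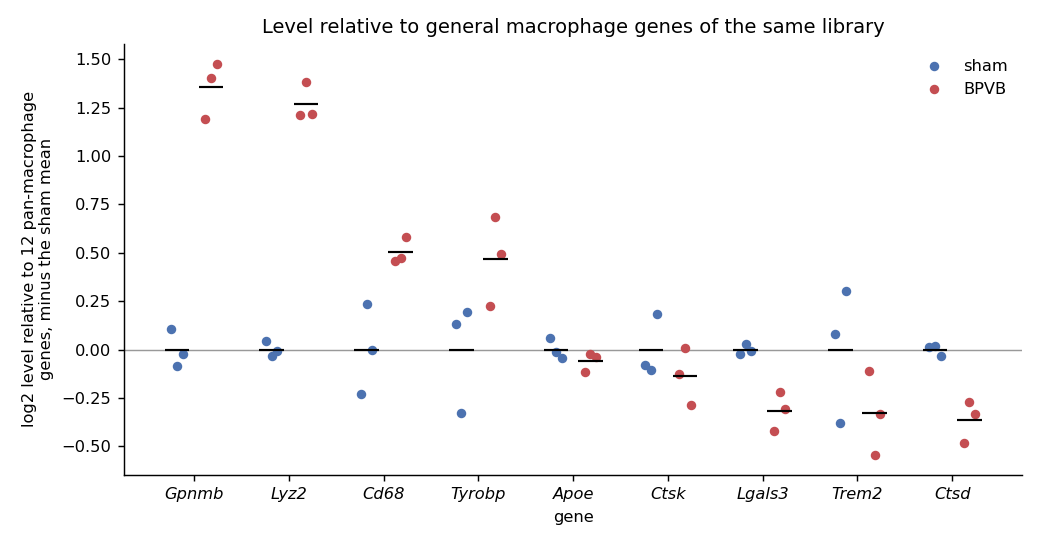
Log2 level of each gene relative to the mean of 12 pan-macrophage genes of the same library, shown minus the sham mean of that gene, with 1 point per library and a short line for the group mean. Gpnmb and Lyz2 lie more than 1 above the sham libraries, Lgals3 and Ctsd lie below them, and the groups mix for Trem2, Ctsk and Apoe.

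Lists of the lysosome and of lipid handling were read beside these genes, and their counts are to be set against the 17.2% of all tested genes called higher and 14.3% called lower. Among the 11 other cathepsins and legumain, 6 were called higher and 1 lower, and the median was 0.28 on the log2 scale. Ctss, a cysteine protease of antigen-presenting cells, rose most, from 17.6 ± 2.38 to 32.2 ± 2.44 FPKM (SD, n = 3, log2 fold change 0.86, adjusted p = 1.7e-04, limma). Ctsl (0.36) and Lgmn (0.42), an asparagine-specific protease, also rose, and Ctsc, which activates granule proteases, fell by 0.21 on the log2 scale. Ctsb, at 257 ± 7.96 against 245 ± 2.66 FPKM, was not called (adjusted p = 0.10, limma), but was called higher with TPM scaling, quantile normalization, limma-voom on fragments or without BPVB replicate 1 (adjusted p 0.0039 to 0.029).

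Of 30 lysosomal hydrolases, 14 were called higher and 0 lower, with a median of 0.20. The count was 9 without sham replicate 3. Hexa and Gm2a, an enzyme subunit and its activator in ganglioside breakdown, rose by log2 fold changes of 0.45 and 0.33. The lipase Lipa, which frees cholesterol in the lysosome, was at 28.2 ± 0.817 FPKM in BPVB and 30.5 ± 1.51 FPKM in sham (SD, n = 3, log2 fold change -0.11, adjusted p = 0.12, limma). Of 22 genes of the lysosomal membrane and its proton pump, 7 were called higher and 3 lower, with a median of 0.07. Slc11a1, a metal transporter of phagocyte lysosomes (1.06), Laptm5, a lysosomal protein of blood cells (0.98), and Npc2, a cholesterol carrier (0.34), rose, as did the structural membrane protein Lamp2 (0.22). The 3 lower genes were the pump subunit Atp6v1d (-0.30), the cystine transporter Ctns (-0.39) and Laptm4a (-0.08), and their share of the list was close to that of all tested genes called lower, 14.3%. The count of lower genes was 1 without BPVB replicate 1, sham replicate 2 or sham replicate 3.

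Of 22 genes for lipid handling of foamy macrophages, 12 were called higher and 1 lower, with a median of 0.39, and 6 were DEGs, beside 17.2% called higher, 14.3% called lower and 2.24% DEGs with a rise among all tested genes. The scavenger receptors Olr1 (1.29) and Cd36 (1.12), the cholesterol exporter Abca1 (1.13) and the fungal pattern receptor Clec7a (1.40) rose by these log2 fold changes. Spp1, osteopontin, reached a log2 fold change of 2.62. The value of Cd36 rested partly on BPVB replicate 2, with 30.3 FPKM beside 18.02 and 16.7 FPKM elsewhere in the group, and leaving that library out gave a log2 fold change of 0.86. Lpl, the lipase that frees fatty acids from lipoproteins, fell by 0.31 on the log2 scale. Fat cells express several of these lipid genes, and a list of 10 adipocyte markers, written after values of some were seen, moved with the groups. It summed to 214 to 235 FPKM in BPVB and 193 to 199 FPKM in sham, with 6 called higher, 3 lower and none at 0. Adipoq, the fat cell hormone adiponectin, rose from 6.31 ± 1.70 to 18.8 ± 0.801 FPKM (SD, n = 3, log2 fold change 1.53, adjusted p = 9.4e-05, limma), whereas Ucp1, the heat-producing carrier of brown fat, fell by 0.66 on the log2 scale. The part of fat cells in the lipid-handling counts was not tested.

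Among 12 genes for signalling by TREM2 and TYROBP, 11 were tested, 4 were called higher and 0 lower, beside 17.2% and 14.3% of all tested genes, with a median of 0.31. Fcer1g, an adaptor related to Tyrobp, rose by 0.67 and the exchange factor Vav1 by 0.62 on the log2 scale. The count of higher genes was 2, close to the share of all tested genes, without BPVB replicate 2, BPVB replicate 3, sham replicate 2 or sham replicate 3. Of 7 transcription factors tied to lysosomal or macrophage genes, 3 were called higher and 0 lower, with a median of 0.30. Cebpb (0.83) and Spi1 (0.76), which direct myeloid differentiation, rose, as did Mitf (0.50). Tfeb, a regulator of lysosome formation, had a log2 fold change of 0.11 (adjusted p = 0.34, limma).

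In the annotation deposited with the table, 286 genes carry the GO term lysosome, among them Cd68, Ctsd, Ctsk and Apoe. Of the other 282 genes, 264 were tested, 79 (29.9%) were called higher and 23 (8.71%) lower, beside 17.2% and 14.3% of all tested genes, and their median was 0.10 on the log2 scale. The count of lower genes was 14 without sham replicate 1. The 4 largest rises were the class II antigen-presenting gene RT1-Ba (3.82), surfactant protein Sftpb (3.31), Lamp3 (2.53) and the protease Napsa (2.34). The largest falls among the 23 lower genes are not reported here. Sftpb, Lamp3 and Napsa are alveolar type 2 cell markers.

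Marker lists of macrophage subtypes and of monocytes were compared as well, again beside 17.2% of all tested genes called higher and 14.3% called lower. Of 9 tested markers of resident perivascular macrophages, 1 was called higher and 2 lower, with a median of 0.01, shares close to those of all tested genes. Mrc1, the mannose receptor, rose by 0.62, whereas Lyve1, a hyaluronan receptor, fell by 0.47 and Timd4, a receptor for dying cells, fell by 0.68 on the log2 scale. The other 6, among them Cd163 (-0.07), Folr2 (0.20) and F13a1 (-0.04), were not called. Which cells the change of Lyve1 came from was not tested. The count of higher markers was 2 without BPVB replicate 3. Of 10 markers of alveolar macrophages, 5 were called higher and 1 lower, with a median of 0.42. Plet1 (1.98) and the lipid droplet gene Cidec (1.29), which fat cells also express, rose. Siglec5, another marker of the list, was at 0.924 ± 0.1804 FPKM in BPVB and 0.753 ± 0.339 FPKM in sham (SD, n = 3, adjusted p = 0.48, limma). The count of higher markers was 3 without BPVB replicate 1 or BPVB replicate 2. The alveolar macrophage list summed to 1592 to 1633 FPKM in BPVB and 1664 to 1674 FPKM in sham, a sum made up mostly of Fabp4, a fatty acid carrier at 1297 ± 22.6 and 1299 ± 5.76 FPKM, and Lpl at 286 ± 5.29 and 355 ± 5.81 FPKM (SD, n = 3). Of 8 monocyte markers, 3 were called higher and 2 lower, with a median of 0.21, and the list summed to 197 to 219 FPKM in BPVB and 225 to 232 FPKM in sham. This sum was made up mostly of Plac8, at means of 98.4 FPKM in BPVB and 100 FPKM in sham, and Ace, at 75.7 and 82.3 FPKM. Neither was called. The chemokine receptors Ccr2 (1.11) and Cx3cr1 (1.16) rose, whereas the transcription factor Nr4a1 fell by 0.97 on the log2 scale. In sham, Nr4a1 had a mean of 25.6 FPKM, beside 0.835 FPKM for Ccr2 and 1.00 FPKM for Cx3cr1. Whether its fall came from monocytes was not tested. The count of lower monocyte markers was 1 without BPVB replicate 2, BPVB replicate 3, sham replicate 1 or sham replicate 2. The part of any of these cell types in the rise of the 8 genes was not tested.

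Promoter sequence from RefSeq (build GRCr8) was at hand for 7 of the 9 genes, as 9 windows of 250 bases before to 50 bases after a start site. The build of the deposited table is not given in the sources used here, and these coordinates belong to GRCr8 alone. The windows were searched on both strands for CACGTG, the E-box bound by MITF and TFE factors, for its longer form TCACGTGA, which contains it, for GAGGAAGT, a site of ETS factors such as PU.1 (Spi1), and for TGANTCA, the AP-1 site. Over 33469 promoter windows of the same length, 6.42% held CACGTG, 0.777% TCACGTGA, 2.42% GAGGAAGT and 7.33% TGANTCA. Ctsd held CACGTG at 157 to 152 and at 10 to 5 bases before the start, the nearer one within TCACGTGA. TGANTCA was found in Gpnmb at 87 to 81 bases, in Cd68 at 205 to 199 and 80 to 74 bases, and in Trem2 across the start itself. GAGGAAGT was in none of the 9 windows. The 3 sequences below are those with matches that lie wholly before the start, shown because Gpnmb and Cd68 rose past the DEG threshold and Ctsd by a log2 fold change of 0.22. Each is the 250 bases before the start on the strand of the gene, 5′ to 3′, with the matched motifs in capitals, and lies at chr1:206968822-206969071 (minus strand) for Ctsd, chr4:79340878-79341127 (plus strand) for Gpnmb and chr10:54882442-54882691 (minus strand) for Cd68.
Ctsd: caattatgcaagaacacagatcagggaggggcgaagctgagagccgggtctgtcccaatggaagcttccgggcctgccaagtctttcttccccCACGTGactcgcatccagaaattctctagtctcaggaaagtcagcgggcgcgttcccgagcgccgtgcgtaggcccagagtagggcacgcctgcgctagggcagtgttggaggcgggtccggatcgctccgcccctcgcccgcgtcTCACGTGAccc
Gpnmb: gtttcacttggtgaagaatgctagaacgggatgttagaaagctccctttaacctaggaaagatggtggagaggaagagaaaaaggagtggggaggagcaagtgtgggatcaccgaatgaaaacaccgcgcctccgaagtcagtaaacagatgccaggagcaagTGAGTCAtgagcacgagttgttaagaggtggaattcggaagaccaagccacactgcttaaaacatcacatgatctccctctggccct
Cd68: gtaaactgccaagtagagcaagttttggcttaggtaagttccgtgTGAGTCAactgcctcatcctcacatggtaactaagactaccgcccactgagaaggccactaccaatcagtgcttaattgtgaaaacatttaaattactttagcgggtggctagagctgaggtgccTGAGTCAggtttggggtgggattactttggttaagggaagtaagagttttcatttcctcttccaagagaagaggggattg
A match is a description of the letters and not of binding by a factor.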

How the data were processed

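RNA-seq values of 6 PV libraries (3 BPVB, 3 sham) were analysed; groups and replicate numbers came from the sample titles, and the letters P and S of the table's columns were matched to them. By the study's methods, the authors used fastp for trimming, HISAT for mapping and HTSeq-count for counting, and deposited the values as FPKM. The submitters' processing notes name HISAT2 2.0.5, StringTie 1.3.3b, featureCounts 1.5.0-p3 and DESeq2 1.20.0 without a role. The methods name the VAHTS Universal V6 kit and the labels NEBNext Ultra. Genome build, annotation and strand setting are not given in the sources used here. Since the unit is FPKM, the study's DESeq2 test was not run, but its thresholds were kept (adjusted p under 0.05, absolute log2 fold change above 1). The deposited table also holds GO and KEGG annotation, and 0 of its columns with values of single samples stayed unused.

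Each gene's FPKM are whole multiples of the value of 1 fragment. Whole fragments were found for 17833 of 17833 genes (relative tolerance 1e-06). A simulated table gave the right fragments for 17504 of 17623 genes (99.3%). Without molecular identifiers, fragments may repeat a molecule, and statements on depth cover counting error only.

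The main test was limma 3.58.1 in R 4.3.3 (lmFit, eBayes with trend) on log2(FPKM + 0.5), two-sided, with Benjamini-Hochberg adjustment, over the 15150 genes that reached a mean of 0.1 FPKM. It was tested on a simulated table of 15162 genes in which 200 differed 4-fold. At both DEG thresholds together, it found 199 of these, 0 unchanged genes and 0 with the wrong sign. Calls at the adjusted p alone were not counted in this simulation, which held no smaller changes. Levels relative to other genes were compared by exact permutation tests. Python 3.11.15, numpy 2.4.6, pandas 2.3.3, scipy 1.17.1 and matplotlib 3.10.9 were used for the rest. The text names the genes of the list and genes of the pathway and marker lists, with a preference for the largest and smallest changes. It also names the largest rises among genes with the GO term lysosome. The genes and lists were chosen with earlier results of these data known, so no list supports another. Some genes of the lists are not reported here. The study selected 3 rats per group for RNA-seq, and p-values measure the spread between these rats. Alternatives were pseudocounts of 0.1 and 1, a filter at a mean FPKM of 1 and no filter, median-of-ratios, TPM and quantile scaling, limma-voom on the recovered fragments, the replicate number as a block, and leaving out each library.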

Additional observations from a re-analysis of the deposited data

How the results depend on the processing

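All 9 genes kept their direction and their side of the adjusted p of 0.05 in each of 15 alternatives. The largest adjusted p of a called gene was 0.032 (Ctsk, limma), and the log2 fold change of Trem2 lay between 0.06 and 0.42 (adjusted p 0.18 to 0.84, limma). DEGs among the 9 were 3 or 4. With 1 library left out, 9 to 12 of the lysosomal hydrolases were higher, 1 to 3 of the lysosomal membrane and pump genes lower, 2 to 3 of the TREM2 and TYROBP signalling genes higher, 1 to 2 of the resident perivascular macrophage genes higher, and 14 to 20 other genes of the GO term lysosome lower. Hydrolases called lower numbered 1 with median-of-ratios scaling. Signalling genes called higher numbered 2 with the filter at a mean FPKM of 1, where fewer genes are tested, and 2 with quantile normalization. Resident macrophage genes called higher numbered 3 with TPM scaling, 3 with limma-voom and 2 with quantile normalization. Relative to the pan-macrophage genes, Apoe changed sign to 0.0511 with quantile normalization. Mertk, near 0 throughout, was at -0.0177 with median-of-ratios scaling, at -0.0605 with quantile normalization and between -0.0799 and 0.0879 with 1 library left out. Fabp4, also near 0, was at 0.0290 with TPM scaling, at 0.129 with quantile normalization (adjusted p 0.0011, limma) and between -0.0156 and 0.00944 with 1 library left out. Except for the filter, the cause of these changes was not tested.

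Deviations of same-numbered BPVB and sham libraries from their group means had correlations of 0.0255, 0.0136 and 0.0153. Those of differently numbered libraries were lower, at -0.0216 to 0.00601. All were small, but with 3 libraries a group they cannot settle whether the numbers pair the rats. With the replicate number as a block, 8 of the 9 genes were still called higher and 4 were DEGs. Across all genes, DEGs numbered 496 in the reported comparison, 901 with a pseudocount of 0.1, 325 with a pseudocount of 1, 725 with TPM scaling and 1122 with limma-voom. Trem2 rested on the fewest fragments of the 9 genes, 37 to 94 a library.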

Other observations

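Of 7 tested neutrophil markers, 4 were called lower in the BPVB group and 0 higher, beside 14.3% and 17.2% of all tested genes. S100a8, a subunit of an alarmin stored in neutrophil cytosol, fell from 11.98 ± 1.601 to 4.32 ± 2.06 FPKM (SD, n = 3), and the granule genes Camp and Ngp fell by 1.39 and 1.74 on the log2 scale. The whole list of 9 summed to 6.90 to 10.4 FPKM in BPVB and 21.8 to 24.6 FPKM in sham libraries, with Elane at 0 in all libraries but 1 of the sham group and Ltf at 0 in all libraries but 1 of the BPVB group. Of 8 tested NK and T cell markers 1, Prf1, was called higher and 0 lower, a call lost with limma-voom and without BPVB replicate 2, sham replicate 2 or sham replicate 3 (adjusted p 0.066 to 0.076, limma). The 9 markers summed to 4.81 to 7.34 against 4.34 to 5.36 FPKM. Of 6 tested dendritic cell markers, 2 were called higher and 1 lower, on the same background. With 1 library left out, the higher count fell to 1 without BPVB replicate 3, sham replicate 1 or sham replicate 2, and the lower count to 0 without BPVB replicate 1, BPVB replicate 3, sham replicate 2 or sham replicate 3.

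The genes whose pattern over the 6 libraries was nearest to the mean profile of the 9 genes were Gng8, Igfbp6, Gprc5a, Omd and C1s, by Euclidean distance among 12148 candidates. The nearest, Gng8, had 5.33 ± 0.0667 FPKM in BPVB and 2.67 ± 0.223 FPKM in sham (SD, n = 3).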
